A study of Mus musculus with 16 samples.

Results

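The integrins of microglia examined here were 10 subunit genes chosen by name, Itgax, Itgam, Itgal, Itgb2, Itgb1, Itga4, Itga6, Itga9, Itgav and Itgb5, of 55385 gene symbols counted. All 10 were among the 14513 genes that passed the filter on low counts. RNA was sequenced from CD11b+ cells taken from mouse brains with magnetic beads, and CD11b is the protein of Itgam, so the cells were selected on the product of 1 of the 10 genes. The 16 libraries came from female mice 20 weeks of age, 4 libraries from each of 4 genotypes. WT mice carried intact Card9 and no 5xFAD transgenes, Card9-/- mice lacked Card9 in the germline, 5xFAD mice carried the transgenes with intact Card9, and Card9-/-5xFAD mice carried the transgenes without Card9. The 5xFAD transgenes carry human mutations of familial Alzheimer's disease and are driven in neurons by the Thy1 promoter, and such mice accumulate Aβ in the brain. Card9 is an adaptor that myeloid cells use downstream of C-type lectin receptors. The lines were crossed with C57BL/6J mice, and the meninges and choroid plexus were removed before the sort.

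Integrins are receptors for matrix and for surface proteins of other cells, and each is a pair of an alpha and a beta subunit. The beta 2 subunit Itgb2 pairs with Itgal (LFA-1), Itgam (Mac-1 or complement receptor 3) and Itgax (complement receptor 4), all restricted to leukocytes, and Mac-1 is a phagocytic receptor of microglia. Itga4, Itga6 and Itga9 pair with Itgb1 (Itga4 also with Itgb7) and bind fibronectin and VCAM-1, laminins, and tenascin C and osteopontin, respectively. Itgav pairs with Itgb5 and other beta subunits and binds vitronectin and other proteins with an RGD motif. Itgax is a known marker of microglia near amyloid plaques.

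Itgam and Itgax are neighbours, yet their counts behaved differently across the genotypes, and Itga4 moved in the opposite direction to Itgax, so the 250 bases before the RefSeq start of these 3 genes (build GRCm38.p6, plus strand, 5′ to 3′) are shown. The window of Itgax is chr7:128129300-128129549, that of Itgam chr7:128062390-128062639 and that of Itga4 chr2:79255176-79255425. Capitals mark matches on either strand to GAGGAA (the core bound by PU.1), TGTGGT (the core bound by RUNX factors) and TGANTCA (the AP-1 site), all searched without regard to overlap.
Itgax: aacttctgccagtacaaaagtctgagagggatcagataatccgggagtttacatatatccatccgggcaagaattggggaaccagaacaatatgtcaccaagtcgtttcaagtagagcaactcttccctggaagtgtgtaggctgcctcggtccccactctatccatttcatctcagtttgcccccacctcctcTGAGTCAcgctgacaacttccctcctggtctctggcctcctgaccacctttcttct
Itgam: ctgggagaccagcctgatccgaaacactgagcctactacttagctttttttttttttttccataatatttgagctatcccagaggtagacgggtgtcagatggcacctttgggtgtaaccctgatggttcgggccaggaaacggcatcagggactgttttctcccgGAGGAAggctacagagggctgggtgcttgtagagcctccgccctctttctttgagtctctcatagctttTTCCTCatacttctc
Itga4: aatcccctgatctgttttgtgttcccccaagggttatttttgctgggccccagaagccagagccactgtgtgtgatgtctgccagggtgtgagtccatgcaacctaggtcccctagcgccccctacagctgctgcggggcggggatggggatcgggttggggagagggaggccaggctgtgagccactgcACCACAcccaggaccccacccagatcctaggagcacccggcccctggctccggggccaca
The Itgax window held 1 match to TGANTCA, beginning 56 bases before the start, and none to the other motifs. The Itgam window held 2 matches to GAGGAA, at 84 bases on the plus strand and at 15 bases on the minus strand, and the Itga4 window held 1 match to TGTGGT at 60 bases on the minus strand. Of 32851 promoter windows of the same length, 23.3% held GAGGAA, 14% held TGTGGT and 6.75% held TGANTCA. These matches describe the letters alone. RefSeq windows were matched for 7 of the 10 genes.

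Between 2970148 and 19333325 reads per library were counted on genes (median 7944265), and the 2 shallowest were replicate 4 of Card9-/-5xFAD and replicate 4 of Card9-/- (3229322 counts). In CPM (counts scaled by library size, as reads per 1e+06), the summed level of 14 microglia markers was 20941 to 44520, all 14 markers were detected in each genotype, and the summed levels of the lists for other cells were lower, with neutrophil markers at 503 to 6353 CPM and border-associated macrophage markers at 673 to 2256 CPM. Card9 itself measured 13.6, 51.4, 43.2 and 39.3 CPM in WT libraries, 31.6, 34.8, 33.2 and 16.7 in those labelled Card9-/-, 15.6, 32.6, 29.1 and 33.5 in 5xFAD, and 26.6, 33.7, 9.73 and 10.8 in those labelled Card9-/-5xFAD. These ranges overlapped, and the difference did not pass the test (Card9-/- against WT, log2 fold change -0.34 ± 0.45 SE, edgeR adjusted p = 0.970). The exons that the Card9 allele lacks are not given in the sources used here, so counts over the whole gene do not check the genotype labels, and each direction given for Card9 deletion rests on the labels.

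Levels of different genes were compared as CPM per kilobase of merged exons, averaged over the 16 libraries. The most abundant were the beta subunits Itgb5 (188, range 68.7 to 449), Itgb2 (143, range 76.8 to 227) and Itgb1 (75.7, range 40.8 to 116), followed by the alpha subunit Itgam (68.6, range 46.5 to 121). The ranges of these 4 genes overlapped one another. Itgam shares exons with another gene, and per kilobase of its unshared exons alone it averaged 219, above Itgb5. Itga6 came next (19.6, range 12.6 to 31.5), and its highest library lay below the lowest library of Itgb1 and of Itgam. Itgav averaged 7.86 and Itga9 4.59, with overlapping ranges, and Itgal (1.74) and Itga4 (0.747) were the least abundant of the 10. The place of Itgax in this order depended on genotype, at a mean of 2.15 in WT and 1.95 in Card9-/- but 33.99 in 5xFAD and 24.8 in Card9-/-5xFAD.

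**Figure D1:**
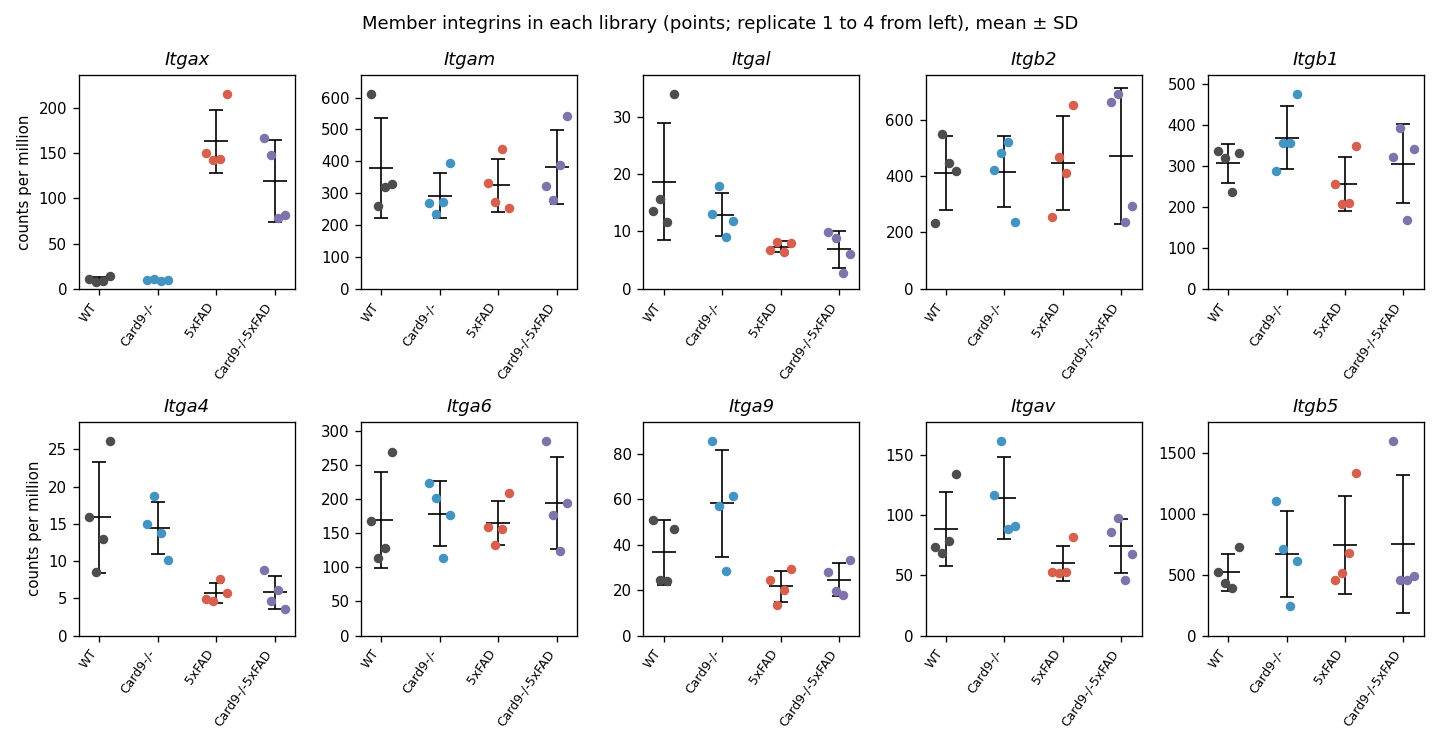
CPM (linear axis from 0, own scale per panel) of the 10 integrin genes in each library, with the group mean and SD of 4 libraries; points run from replicate 1 to 4 within a genotype. The 8 libraries with transgenes sit at 78.7 CPM or above for Itgax and the other 8 at 14.3 or below, while Itgb2, Itga6 and Itgb5 spread widely within genotypes.

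The comparison of mice with and without the transgenes asked how microglia respond to Aβ pathology, and it was made with Card9 (5xFAD against WT), without Card9 (Card9-/-5xFAD against Card9-/-) and as the mean of both. In the mean of both, Itgax rose 14.2-fold, Itga4 fell by 1.39, Itgal by 1.12 and Itga9 by 0.996 on the log2 scale, and the other 6 genes were not called (edgeR, adjusted p under 0.1). The 4 of 10 called compare with 11.3% of all 14513 genes, where 816 were higher (5.62%) and 831 lower (5.73%). In 5xFAD against WT alone 2 of 10 were called, Itgax and Itga4, beside 2.09% of all genes, and in Card9-/-5xFAD against Card9-/- 1 of 10 was called, Itgax, beside 1.97%. The median log2 fold change of the 10 genes in the mean contrast was -0.11, and that of all genes was -0.15. Because these are bulk samples, fewer cells of a type and less RNA per cell cannot be told apart.

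Itgax (chr7:128129547-128150657, plus strand, GRCm38) measured 11.3, 6.93, 8.83 and 14.3 CPM in WT and 9.61, 10.5, 8.12 and 9.16 in Card9-/-. With the transgenes it measured 150.4, 142.8, 144.3 and 215.5 CPM in 5xFAD, with 167.3, 148.2, 78.7 and 82.1 in Card9-/-5xFAD. No library with transgenes overlapped the range without them, a separation of 8 against 8 libraries that 1.19% of all genes showed in this direction. The rise was 15.8-fold in 5xFAD (log2 fold change 3.98 ± 0.34 SE, edgeR adjusted p = 7.49e-06) and 12.7-fold in Card9-/-5xFAD (3.67 ± 0.33, adjusted p = 1.21e-05). In the mean contrast the log2 fold change was 3.83 ± 0.24 (adjusted p = 4.78e-08). Of the variance of log2 CPM of Itgax over the 16 libraries, 96.9% lay between genotypes. Within Card9-/-5xFAD, replicates 3 and 4 lay at about the same level and below replicates 1 and 2, and those libraries had 6081583 and 2970148 counts.

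Itgax is also known from dendritic cells. Of 7 tested dendritic cell markers none rose, 2 fell in the mean contrast (Zbtb46, -0.84, and Ccr7, -1.60 on the log2 scale), and no marker of that list was at 0 in all libraries of a genotype. Their summed level was 174.6 to 308.3 CPM in WT and 308.4 to 389.6 in Card9-/-, against 134.2 to 248.6 in 5xFAD and 137.0 to 197.4 in Card9-/-5xFAD. The ranges with and without the transgenes overlapped with Card9 and not without it, and the part of dendritic cells in the rise of Itgax was not tested. Of 14 microglia markers 1 rose, Trem2 (log2 fold change 1.40 ± 0.22), the lipid receptor of disease-associated microglia, and none fell.

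**Figure D2:**
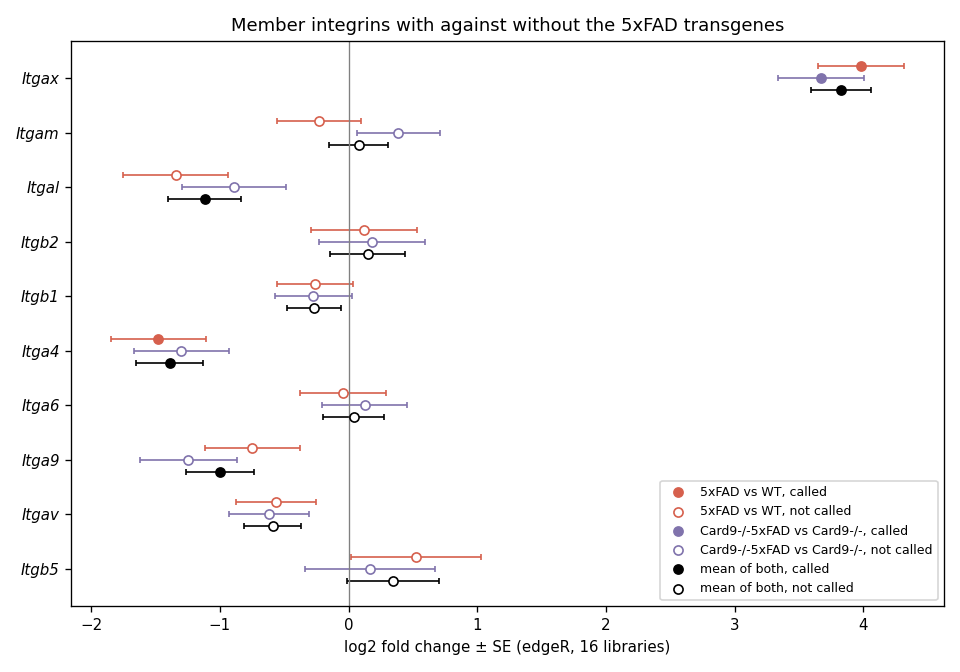
Log2 fold change with its standard error for the 10 integrin genes, with against without the 5xFAD transgenes, in each Card9 genotype and as the mean of both; filled points passed an edgeR adjusted p of 0.1. Itgax stands near 3.8, Itga4, Itgal and Itga9 lie between -1.39 and -0.996 in the mean contrast, and the others lie nearer 0.

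Itgam, the gene of the sorted protein CD11b (chr7:128062640-128118491, plus strand), measured 610.6, 260.8, 318.0 and 328.4 CPM in WT, 270.6, 233.8, 271.1 and 395.2 in Card9-/-, 332.0, 271.4, 439.4 and 253.7 in 5xFAD, with 322.0, 278.2, 387.7 and 543.8 in Card9-/-5xFAD. The ranges of all 4 genotypes overlapped, and the mean contrast was 0.08 ± 0.23 SE (edgeR adjusted p = 0.865). Its sign differed between 5xFAD (-0.23 ± 0.33) and Card9-/-5xFAD (0.39 ± 0.33), a difference that did not pass the interaction test (0.62 ± 0.46, adjusted p = 1.0). Itgax begins 11.1 kb after the end of Itgam on the same strand, and Itgad follows Itgax by 3.72 kb.

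The annotation bears on how Itgam was counted. GENCODE lists a second protein-coding gene, Gm49368, on the same strand, whose exons cover 3450 of the 5024 merged exon bases of Itgam (68.7%) and lead past the end of Itgam toward Itgax. Gm49368 was listed at 1 to 14 counts per library, 84 in all, beside 43922 for Itgam. Most of the 1574 unshared bases of Itgam lie in its last 2 exons, the final one (1186 bases) being unshared throughout. The setting by which reads in shared exons were counted is not given in the sources used here. If the counting used these exons, the 84 counts of Gm49368 show that such reads were not credited to both genes alike. They were then either left out or credited to Itgam alone. Per kilobase of unshared exon the mean level of Itgam was 219 CPM, above the 188 CPM per kilobase of Itgb5. The place of Itgam among the 10 genes therefore depends on how reads in shared exons were counted.

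**Figure D3:**
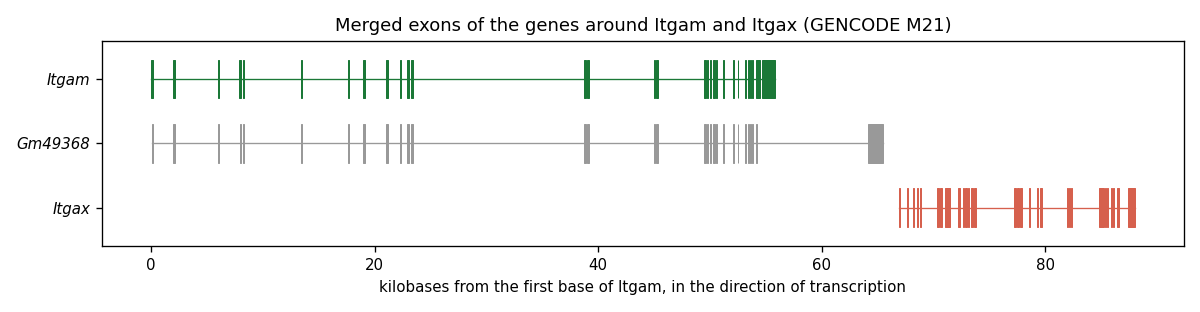
Merged exons (boxes) of Itgam, Gm49368 and Itgax by distance in kilobases from the first base of Itgam; lines join the exons of a gene. Most exons of Gm49368 coincide with those of Itgam, most of the 1574 unshared bases lie near the 3′ end of Itgam, and Itgax begins 11.1 kb after the end of Itgam.

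Itgb2, the shared beta subunit, measured 234.5, 548.5, 446.8 and 418.1 CPM in WT, 421.0, 482.6, 521.8 and 236.5 in Card9-/-, 253.3, 467.6, 411.7 and 654.4 in 5xFAD, with 665.4, 691.3, 235.7 and 292.3 in Card9-/-5xFAD. Its levels differed more within genotypes than between them, with 0.777% of its variance between genotypes and a mean contrast of 0.15 ± 0.29 SE (edgeR adjusted p = 0.796). The ratio of Itgb2 to Itgam ran from 0.384 in WT replicate 1 to 2.58 in 5xFAD replicate 4. A measure of the library as a whole moved with this ratio, the slope of log2 CPM (relative to each gene's mean) on log2 exon length over genes. The 6 libraries of lowest slope (-0.224 to -0.135) were the 6 with the lowest ratio (0.384 to 0.937), and they came from all 4 genotypes. Neutrophil markers in these libraries summed to 3642 CPM in WT replicate 1, 6353 in Card9-/- replicate 4 and 5998 in Card9-/-5xFAD replicate 4. They summed to 2118 and 1915 in 5xFAD replicates 1 and 3, but to 503 in Card9-/-5xFAD replicate 3. Outside these libraries they reached 2448 in WT replicate 3 (ratio 1.40) and at most 1263 in the rest. The part of neutrophils in this ratio was not tested. With the slope on exon length as a covariate, chosen after the data were seen, Itgb2 reached the threshold in the mean contrast (0.51 ± 0.18, adjusted p = 0.0647) and Itgam stood at -0.17.

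Itgal, the alpha subunit of LFA-1 (chr7:127296260-127335138, plus strand), measured 13.6, 15.6, 11.7 and 33.9 CPM in WT and 12.97, 17.9, 8.95 and 11.8 in Card9-/-. It measured 6.67, 8.22, 6.47 and 8.04 CPM in 5xFAD, with 9.87, 8.90, 2.78 and 6.01 in Card9-/-5xFAD. The 4 libraries of 5xFAD lay below the 4 of WT, as 3.69% of all genes did, and the ranges of Card9-/- and Card9-/-5xFAD overlapped. The mean contrast was -1.12 ± 0.29 SE (edgeR adjusted p = 0.0288), with -1.34 ± 0.40 in 5xFAD (adjusted p = 0.160) and -0.89 ± 0.40 in Card9-/-5xFAD (adjusted p = 0.384). WT replicate 4 was the highest library, and without it the mean contrast was -0.89 and the difference in 5xFAD stood at -0.89 (adjusted p = 0.612). Without Card9-/-5xFAD replicate 3 the difference in 5xFAD passed the threshold (-1.35, adjusted p = 0.0952), as it did with DESeq2 on all libraries (adjusted p = 0.0657) or on the groups compared (0.0495) and with 1 surrogate variable (0.0279).

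Taken per kilobase and as a share of the 4 alpha subunits that pair with Itgb2 (Itgal, Itgam, Itgax and Itgad), Itgax made up 1.86, 2.59, 2.74 and 4.05% in WT and 3.45, 4.25, 2.96 and 2.30% in Card9-/-. The share was 31.7, 34.9, 25.3 and 46.4% in 5xFAD, with 34.5, 35.2, 17.4 and 13.5% in Card9-/-5xFAD. The median share of Itgam was 93.7% in WT, 65.1% in 5xFAD and 72.8% in Card9-/-5xFAD, and the share of Itgad was at most 0.873%. With Itgam divided by its unshared exon length the median share of Itgax was 0.872% in WT, 1.05% in Card9-/-, 13.8% in 5xFAD and 10.3% in Card9-/-5xFAD, so the size of the share but not its order by transgenes depended on that choice. These shares restate the counts of Itgax and carry no test of their own.

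**Figure D4:**
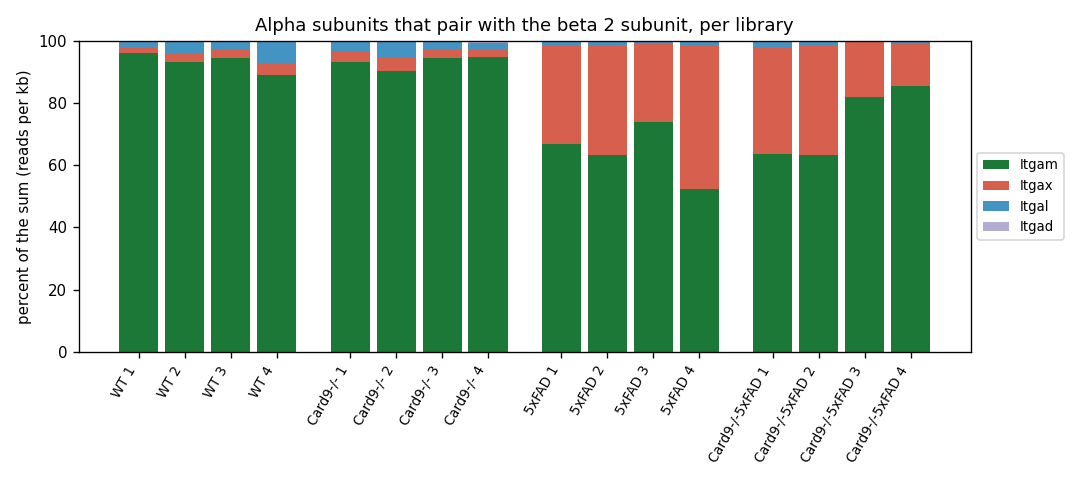
Share of each alpha subunit in the sum of Itgam, Itgax, Itgal and Itgad, as CPM per kilobase of merged exons, for each of the 16 libraries (stacked to 100%). Itgax takes 1.86 to 4.25% in the 8 libraries without transgenes and 13.5 to 46.4% in the 8 with them. With Itgam divided by its unshared exon length (not drawn), Itgax would take 0.597 to 1.42% and 4.7 to 21.6%.

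Itga4 (chr2:79255426-79333123, plus strand), which lymphocytes and monocytes use to bind VCAM-1 and MAdCAM-1 on endothelium, measured 15.9, 8.47, 13.02 and 26.1 CPM in WT and 15.0, 18.7, 13.8 and 10.1 in Card9-/-. With the transgenes it measured 4.85, 4.66, 7.55 and 5.72 CPM in 5xFAD, with 8.78, 4.68, 6.08 and 3.60 in Card9-/-5xFAD. The ranges did not overlap within either Card9 genotype, which held for 8.04% of all genes in 5xFAD against WT and 7.01% in Card9-/-5xFAD against Card9-/-. The counts behind these values were low, 32 to 42 per library in 5xFAD and 9 to 89 in Card9-/-5xFAD. The mean contrast was -1.39 ± 0.26 SE (edgeR adjusted p = 0.00381) and stayed past the threshold whichever library was omitted.

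The fall of Itga4 was 2.78-fold in 5xFAD (-1.48 ± 0.37, adjusted p = 0.0604) and 2.46-fold in Card9-/-5xFAD (-1.30 ± 0.37, adjusted p = 0.118), and the test of the difference did not pass (0.18 ± 0.51, adjusted p = 1.0). In 5xFAD the call was lost without WT replicate 3 (-1.56, adjusted p = 0.108), WT replicate 4 (-1.12, 0.298), 5xFAD replicate 1 (-1.40, 0.175), 5xFAD replicate 2 (-1.39, 0.220) or 5xFAD replicate 4 (-1.26, 0.181). In Card9-/-5xFAD it was gained without WT replicate 4 (-1.30, 0.0960) or Card9-/- replicate 4 (-1.42, 0.0717). Of the exon bases of Itga4, 8.04% are shared with Cerkl on the other strand, and the strand setting of the counts is not given in the sources used here.

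Itga9 (chr9:118606690-118901003, plus strand), the alpha subunit of a receptor for tenascin C and osteopontin, measured 50.9, 24.6, 23.9 and 47.0 CPM in WT and 85.6, 57.0, 28.6 and 61.5 in Card9-/-. It measured 24.3, 13.3, 20.1 and 29.4 CPM in 5xFAD, with 28.02, 19.5, 17.7 and 33.2 in Card9-/-5xFAD. The ranges overlapped within each Card9 genotype, and the mean contrast was -0.996 ± 0.26 SE (edgeR adjusted p = 0.0334). The difference was -0.75 ± 0.37 in 5xFAD (adjusted p = 0.493) and -1.24 ± 0.38 in Card9-/-5xFAD (adjusted p = 0.147), where it passed without Card9-/- replicate 3 (-1.48, adjusted p = 0.0904).

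Itgav, the vitronectin receptor subunit, measured 52.2 to 81.9 CPM in 5xFAD and 46.6 to 97.7 in Card9-/-5xFAD, against 68.8 to 134.1 in WT and 88.2 to 161.7 in Card9-/-. Its mean contrast was -0.59 ± 0.22 SE and did not pass (edgeR adjusted p = 0.120), although it did without Card9-/- replicate 4 (-0.64, adjusted p = 0.0760). Itgb1, the partner of Itga4, Itga6 and Itga9, measured 306 ± 46.9 CPM in WT, 369 ± 77.5 in Card9-/-, 256 ± 66.1 in 5xFAD and 305 ± 96.9 in Card9-/-5xFAD (SD, n = 4), with a mean contrast of -0.27 ± 0.21 SE (adjusted p = 0.478). Itga6, the laminin receptor subunit, ranged from 114 to 285 CPM over the 16 libraries, with a mean contrast of 0.04 ± 0.24 (adjusted p = 0.940). Neither gene separated any of the genotypes.

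Itgb5, a partner of Itgav, was the most variable of the 10 within genotypes, with a SD of 0.752 on the log2 scale. It measured 522.9, 430.6, 389.0 and 726.1 CPM in WT, 1104, 712.6, 244.1 and 609.8 in Card9-/-, 455.0, 512.3, 673.3 and 1332 in 5xFAD, with 1595, 456.6, 456.4 and 487.8 in Card9-/-5xFAD. In each genotype 1 library stood highest, and it was the same library that stood highest for Itga6, namely replicate 4 of WT and of 5xFAD and replicate 1 of Card9-/- and of Card9-/-5xFAD. Its mean contrast was 0.34 ± 0.36 SE (edgeR adjusted p = 0.602).

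Within each Card9 genotype the deviations of same-numbered libraries from their group means correlated positively. The transgene contrasts were therefore also fitted with these 8 pairs as blocks, a fit chosen after the data were seen. Libraries of different number were not compared, so the numbers may not mark pairs. The blocks were picked from the same counts, and the blocked p-values are given as a description, not as further support. With the blocks 5 of 10 integrins were called in 5xFAD against WT and 5 in Card9-/-5xFAD against Card9-/-, beside 2322 and 2966 of all genes, and the 5 were the same, Itgax, Itgal, Itga4, Itga9 and Itgav. Blocked log2 fold changes in 5xFAD were -1.23 for Itgal (edgeR adjusted p = 0.0174), -0.72 for Itga9 (0.0533) and -0.53 for Itgav (0.0628). In Card9-/-5xFAD they were -0.98 for Itgal (0.0379), -1.34 for Itga4 (0.0130), -1.20 for Itga9 (0.00396) and -0.63 for Itgav (0.0242). In the mean contrast the block added Itgav (-0.58, adjusted p = 0.00286).

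Markers of other cells were also called in the mean contrast, and they are set here beside Itga4, Itgal and Itga9 with a property of the libraries. Whether they followed these 3 genes from library to library was not tested. In the mean contrast 5 of 9 border-associated macrophage markers fell (Mrc1, Cd163, Lyve1, F13a1 and Stab1), as did 3 of 7 tested monocyte markers (Ccr2 and Hp among them), 4 of 10 neutrophil markers and 2 of 7 tested T and NK cell markers (Cd4 and Lck), and no marker of these lists rose, while 5.73% of all genes fell. Of 8 tested endothelial cell and pericyte markers Pecam1 (-1.31) and Pdgfrb (-1.70) fell, and of 6 astrocyte markers Gfap (3.57) and Aqp4 (1.07) rose, all on the log2 scale. Border-associated macrophage markers summed to 1476 to 2024 CPM in WT, 1614 to 2256 in Card9-/-, 897 to 1028 in 5xFAD and 673 to 2054 in Card9-/-5xFAD. Monocyte markers summed to 196.3 to 499.3, 182.4 to 318.0, 123.9 to 314.4 and 97.1 to 229.1 CPM in the same order. The libraries with transgenes were therefore lower in the first list in 7 of 8 cases and overlapped in the second.

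Neutrophil markers summed to 1136 to 3642 CPM in WT, 1201 to 6353 in Card9-/-, 786 to 2118 in 5xFAD and 503 to 5998 in Card9-/-5xFAD. The highest sums in Card9-/- and Card9-/-5xFAD were those of replicate 4, the 2 shallowest libraries. The other libraries of these genotypes reached 1263 and 860 CPM, respectively. T and NK cell markers summed to 38.0 to 259.9 CPM in WT, 40.8 to 92.6 in Card9-/-, 25.2 to 111.8 in 5xFAD and 20.4 to 55.7 in Card9-/-5xFAD. Among defining T cell markers, Cd8a had 0 counts in all libraries of Card9-/-, and Cd3e and Cd8a in all of Card9-/-5xFAD. The part of these cells in the fall of Itga4, Itgal and Itga9 was not tested. The slope of expression on exon length was -0.135 to 0.147 in WT, -0.136 to 0.285 in Card9-/-, -0.224 to 0.0697 in 5xFAD and -0.159 to 0.141 in Card9-/-5xFAD. With that slope as a covariate the mean contrast was -1.17 for Itga4 (edgeR adjusted p = 0.00580), -0.80 for Itgal (0.0337), -0.98 for Itga9 (0.0243) and 4.02 for Itgax (2.67e-10).

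Of 17 other integrin subunits, 8 passed the filter on low counts, 2 fell in the mean contrast (5.73% of all genes did) and none rose, with a median log2 fold change of -0.65 beside -0.15 over all genes. Itgb7, the leukocyte beta subunit that pairs with Itga4 or Itgae, measured 10.2, 21.7, 16.1 and 13.6 CPM in WT, 13.4, 17.5, 12.6 and 22.6 in Card9-/-, 5.76, 5.89, 4.32 and 7.49 in 5xFAD, with 8.39, 6.28, 1.56 and 3.20 in Card9-/-5xFAD. No library with transgenes reached the lowest library without them, as for 0.469% of all genes, and Itgb7 fell by 1.56 on the log2 scale (SE 0.30, edgeR adjusted p = 0.00450). It was called in Card9-/-5xFAD (-1.72, adjusted p = 0.0642) and stood at -1.39 in 5xFAD (adjusted p = 0.159). Itgae, the other alpha partner of Itgb7, fell by 0.97 (adjusted p = 0.0541), from 6.53 ± 2.73 CPM in WT and 7.60 ± 3.11 in Card9-/- to 3.21 ± 0.957 in 5xFAD and 4.08 ± 0.899 in Card9-/-5xFAD (SD, n = 4). Both known alpha partners of Itgb7 were therefore called lower together with it. Counts per library were low here too, for Itgb7 24 to 55 in 5xFAD and 8 to 85 in Card9-/-5xFAD. For Itgae they were 13 to 27 and 13 to 38 in the same order.

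The other 6 subunits tested were not called. Itgb3, the partner of Itgav in the vitronectin receptor, measured 37.3 to 265.5 CPM (mean contrast 0.38 ± 0.40), and Itga5, the fibronectin receptor subunit, 4.22 to 60.9 CPM (0.89 ± 0.52). Itgb2l (-1.66 ± 0.62), Itga1 (-1.38 ± 0.69), Itga10 (-0.33 ± 0.70) and Itgad (0.24 ± 0.56) stayed below 8 CPM in each library, and the last 3 had 25 counts or fewer.

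Among 37 genes of integrin activation and adaptors, 33 were tested, and in the mean contrast 2 rose and 4 fell (5.62% and 5.73% of all genes did), with a median of -0.15 equal to that of all genes. Fermt3 (kindlin-3), which activates beta subunits of leukocytes, fell by 0.59 on the log2 scale (edgeR adjusted p = 0.0830), from 508 ± 90.6 CPM in WT and 535 ± 14.6 in Card9-/- to 326 ± 101 in 5xFAD and 368 ± 84.7 in Card9-/-5xFAD (SD, n = 4). The Cas family adaptors Nedd9 (-0.98, adjusted p = 0.0118) and Cass4 (-1.10, adjusted p = 0.00195) and Filip1l, a relative of a filamin A interacting protein, (-1.01, adjusted p = 0.00462) also fell. Nedd9 stood at -1.61 ± 0.31 SE in 5xFAD (adjusted p = 0.0119) and at -0.35 ± 0.30 in Card9-/-5xFAD (adjusted p = 0.705), and Cass4 at -1.45 ± 0.27 (adjusted p = 0.00993) and -0.76 ± 0.27 (adjusted p = 0.227). The interaction passed for neither (adjusted p = 1.0). Fgr, a Src kinase downstream of beta 2 integrins (0.80, adjusted p = 0.0294), and Itgb1bp1 (ICAP-1), a binding protein of the beta 1 tail (0.79, adjusted p = 0.0457), rose. The other adaptors tested were not called in this contrast.

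Of 35 ligand genes 17 were tested, 2 rose and none fell, a share called close to the 11.3% of all genes in the mean contrast. Spp1 (osteopontin), a ligand of Itgav and Itga9 integrins and a gene of disease-associated microglia, measured 14.8 to 78.0 CPM in WT, 9.49 to 53.5 in Card9-/-, 841 to 1761 in 5xFAD and 127.4 to 871.2 in Card9-/-5xFAD. It rose by 4.47 on the log2 scale (SE 0.47, edgeR adjusted p = 1.62e-05), the largest change among the ligands tested. Madcam1, the ligand of the Itga4 and Itgb7 pair, measured 7.89, 8.50, 7.19 and 2.45 CPM in 5xFAD but at most 1.32 CPM in all 12 other libraries. Its mean contrast was 2.42 ± 0.42 (adjusted p = 0.00188), with 3.36 in 5xFAD (adjusted p = 0.00466) and 1.48 in Card9-/-5xFAD (adjusted p = 0.315).

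The effect of Card9 deletion was compared without transgenes (Card9-/- against WT) and with them (Card9-/-5xFAD against 5xFAD), which is the contrast the study was built around. None of the 10 integrins was called in either, beside 0% of all genes in each. At an unadjusted edgeR p under 0.05, 0 of the 10 passed in either contrast, beside 597 of all genes in the first and 366 in the second, and DESeq2 on all libraries called 5 and 2 of all genes and none of the 10. The lowest unadjusted edgeR p-values of the 10 were 0.0887 for Itga9 in the first contrast and 0.146 for Itgax in the second.

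**Figure D5:**
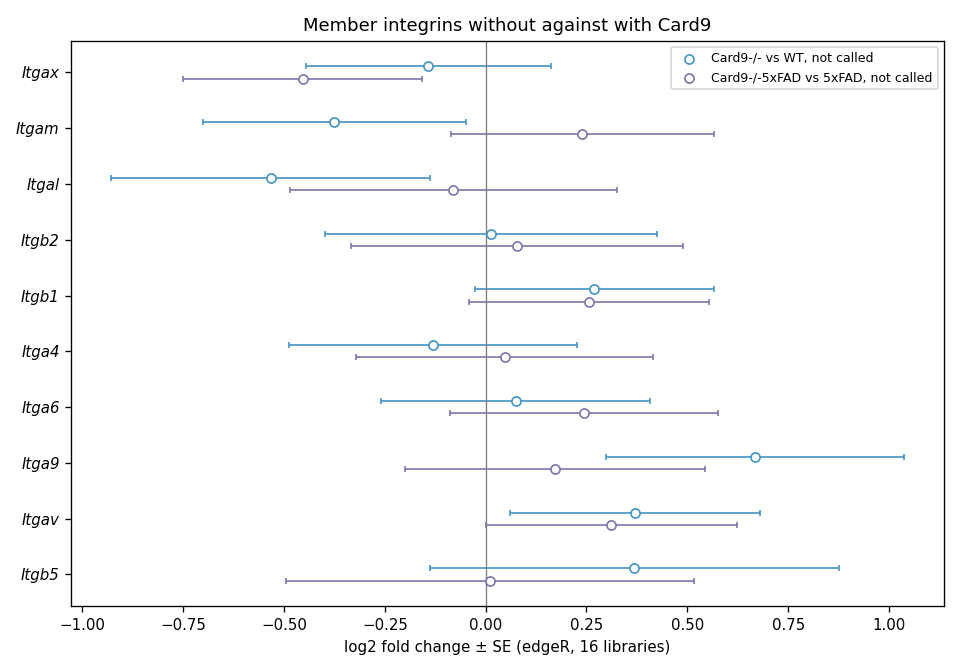
Log2 fold change with its standard error for the 10 integrin genes in libraries labelled as lacking Card9 against those with it, without and with the 5xFAD transgenes; open points did not pass an edgeR adjusted p of 0.1. All 20 points are open, and they lie between -0.53 and 0.67.

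Itgax measured 163 ± 35.0 CPM in 5xFAD and 119 ± 45.3 in libraries labelled Card9-/-5xFAD (SD, n = 4), and the 2 lower replicates of the latter lay below all 5xFAD libraries while the 2 higher ones overlapped them. The difference was -0.45 ± 0.30 SE on the log2 scale (edgeR adjusted p = 0.993), within the spread between replicates, and the interaction was -0.31 ± 0.43 (adjusted p = 1.0). Without transgenes the difference in Itgax was -0.14 ± 0.30 (adjusted p = 0.978). Itga9 stood at 36.6 ± 14.3 CPM in WT and 58.2 ± 23.4 in Card9-/- (0.67 ± 0.37, adjusted p = 0.970), with overlapping ranges, and at 21.8 ± 6.81 and 24.6 ± 7.29 with the transgenes (0.17 ± 0.37). For Itgam, the sorted marker, the differences were -0.38 ± 0.33 and 0.24 ± 0.33, and for Itgal -0.53 ± 0.40 and -0.08 ± 0.41.

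In the mean of both Card9 contrasts none of the 10 was called (lowest adjusted p 0.614), beside 0.0276% of all genes, and none was called in the interaction, where edgeR called 0 genes, 78 had an unadjusted p under 0.05 and DESeq2 on all libraries called 1. Of the related genes named here, Madcam1 in libraries labelled Card9-/-5xFAD (0.913 to 1.22 CPM) lay below all 5xFAD libraries (2.45 to 8.50). Of all genes, 0.923% did so. That difference was -2.60 ± 0.56 SE (edgeR adjusted p = 0.993, unadjusted p = 0.000263). The Card9-/-5xFAD values rested on 3 to 10 counts per library. The study, using DESeq2 at an FDR under 0.1, reported Madcam1 as lower in Card9-/-5xFAD than in 5xFAD, so its call differed between the methods. Nedd9 and Cass4 lay higher in each Card9-/-5xFAD library than in any 5xFAD library, at 5.74 to 10.1 against 2.88 to 5.18 CPM and 19.8 to 38.5 against 15.2 to 19.7 CPM (adjusted p = 0.993 for both), as 0.972% of all genes did. Itgb1bp1 lay lower in each Card9-/- library (24.5 to 43.9 CPM) than in any WT library (49.9 to 81.0), as 1.6% of all genes did, with an adjusted p of 0.970. Madcam1, Nedd9, Cass4 and Itgb1bp1 were named because they were called in transgene contrasts that used the same libraries. That choice can favour such separations, so the shares over all genes are not a like background.

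For each of the 4 called integrins, the 3 genes whose log2 CPM correlated most with it over the 16 libraries were named. For Itgax these were Mamdc2 (Pearson r 0.985), Tmem163 (0.984) and Chst2 (0.983), and after removal of the genotype means r was 0.680, 0.662 and 0.594. Mamdc2 averaged 0.0481 CPM in WT and 28.7 in 5xFAD, and was thus near 0 in WT, where Itgax was not. Itga4 was most like Hlf (0.891), Lemd3 (0.876) and Rasgrp1 (0.857). Itgal was most like Gspt1 (0.908), Tiam2 (0.907) and Cyfip2 (0.883), and Itga9 was most like Rbm33 (0.936), Tle3 (0.925) and Arrb1 (0.922). Within genotypes r was 0.606, 0.771 and 0.454 for the 3 genes of Itga4 and between 0.821 and 0.909 for those of Itga9 and Itgal, and all points share their library's depth and length slope. These correlations are over libraries of 4 genotypes and are given as a description, without a test.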

How the data were processed

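The measurements were RNA-Seq read counts of sorted CD11b+ cells from 16 libraries, 4 per genotype, as numbered by the labels. The authors aligned reads to mm10 with HISAT2, filtered them with SAMtools and counted them with HTSeq, and the deposited values were whole-number counts per gene symbol, without normalization. The strand and overlap settings of HTSeq are not given in the sources used here. Where nothing says that replicates were separate mice, p-values measure only the spread between these libraries, which may be technical.

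Differential expression was tested on the deposited counts with edgeR 4.0.16 in R 4.3.3 (quasi-likelihood F test, TMM, filterByExpr at a minimum count of 10, 14513 genes, 4 groups in a fit of all 16 libraries). P-values were adjusted by Benjamini-Hochberg over all genes tested, at a threshold of 0.1, and the SE is the log2 fold change divided by the square root of F. CPM use TMM library sizes, and log2 CPM add a prior count of 2. Gene positions and merged exon lengths are from GENCODE M21 (GRCm38), which matched 48579 of 55385 symbols, and promoter sequences from RefSeq (GRCm38.p6). No pair of the 24 within genotypes was a copy (lowest chi-square per degree of freedom 6.45). The script was tested on simulated data.

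The genes named are the 10 integrins, Card9, all tested subunits, and the adaptors and ligands that passed the threshold in a contrast. Markers that define other cells and the 3 genes most correlated with each called integrin were added. Adaptors and ligands without a call are not listed, even where their groups did not overlap. The integrins and lists were chosen with earlier results of these data known. Values of some single list genes are not reported here. Alternatives were DESeq2 1.42.0 (all libraries, or the groups compared), its size factors in edgeR, other filters, edgeR on the groups compared, a threshold of 0.05, replicate number as a block, 1 surrogate variable (sva 3.50.0) and each library left out. A block within each Card9 genotype, the length slope as a covariate, and leaving out both libraries with fewer than 4000000 counts were chosen after seeing the data. Deviations of same-numbered libraries from their group means correlated at 0.275 to 0.708 between WT and 5xFAD and at 0.128 to 0.734 between Card9-/- and Card9-/-5xFAD, so these numbers were taken as pairs. Between WT and Card9-/- (-0.545 to 0.488) and between 5xFAD and Card9-/-5xFAD (-0.637 to 0.256) they were not. Libraries of different number were not compared, so this check cannot show that the numbers mark pairs.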

Additional observations from a re-analysis of the deposited data

Results flagged for a closer look

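In 5 of 40 groups of 4 libraries (each of the 10 integrins in each genotype), 1 library stood apart from the other 3 by Dixon's test (its gap to the nearest other, as a share of the range, passed the 95% critical value). Chance flags about 1 in 20 groups. Itgax measured 215.5 CPM in 5xFAD replicate 4 and 142.8 to 150.4 in the others. The same library was highest for Itgav, at 81.85 CPM against 52.2 to 53.2. Itgav also stood apart in WT replicate 4, at 134.1 CPM against 68.8 to 78.3, and Itgb1 in WT replicate 3, at 236.5 CPM against 320.1 to 337.2. Itgb5 measured 1595 CPM in Card9-/-5xFAD replicate 1 and 456.4 to 487.8 in the others. The Itgax call did not depend on its library: without 5xFAD replicate 4, as without any other, it was called in both transgene contrasts.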

How the results depend on the processing

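The rise of Itgax in both Card9 genotypes, and the calls of Itgax, Itga4, Itgal and Itga9 in the mean transgene contrast, kept their direction and their side of the threshold under every alternative that gave a value, and no integrin was called for Card9 deletion or for the interaction under any. Of the recomputed fold changes of single integrins in the 7 contrasts, 1639 kept both, 8 lost and 26 gained a call, and 116 changed sign. In 5xFAD against WT the 2 integrins called became 1 at an adjusted p under 0.05, with no filter, with 10 counts in every library, with the replicate block or with edgeR on the groups compared, 3 with DESeq2 on all libraries, DESeq2 on the groups compared or the surrogate variable, and 5 with the block within each Card9 genotype (1 to 3 with a library left out). In Card9-/-5xFAD against Card9-/- the 1 called became 3 with DESeq2 on all libraries, the surrogate variable or the length slope, 2 with the replicate block and 5 with the block within each Card9 genotype (1 to 2 with a library left out). The mean transgene contrast gave 3 with 10 counts in every library and 4 to 5 otherwise. Itga4 gave no value with 10 counts in every library, since 1 library had 9.

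Counts over all genes moved more. In 5xFAD against WT, 304 became 171 with 10 counts in every library, 565 with DESeq2 on all libraries, 669 with DESeq2 on the groups compared, 2068 with the surrogate variable, 582 without both shallow libraries, 2322 with the block within each Card9 genotype and 917 with the length slope, and 164 (without WT replicate 4) to 386 with a library left out. In Card9-/-5xFAD against Card9-/-, 286 became 162 at an adjusted p under 0.05, 185 with no filter, 148 with 10 counts in every library, 812 with DESeq2 on all libraries, 433 with DESeq2 and 96 with edgeR on the groups compared, 2567 with the surrogate variable, 519 without both shallow libraries, 2966 with the block within each Card9 genotype and 839 with the length slope, and 120 (without Card9-/- replicate 2) to 720 (without Card9-/- replicate 4) with a library left out. In the mean transgene contrast 1647 became 920 at an adjusted p under 0.05, 1070 with no filter, 5727 with the surrogate variable, 3017 without both shallow libraries, 6078 with the block within each Card9 genotype and 3568 with the length slope, and 955 (without WT replicate 4) to 3053 (without Card9-/- replicate 4) with a library left out. Card9-/- against WT gave 0 genes, but 2 with no filter, 5 with DESeq2 on all libraries, 8 with DESeq2 on the groups compared, 9 with the surrogate variable and 3 with the length slope. Card9-/-5xFAD against 5xFAD gave 0, but 1 with no filter or the surrogate variable, 2 with DESeq2 on all libraries and 9 with DESeq2 on the groups compared. Each gave 0 to 1 with a library left out. The mean Card9 contrast gave 4, but 2 at an adjusted p under 0.05 or with DESeq2 size factors, 0 with 10 counts in every library, 106 with DESeq2 on all libraries, 787 with the surrogate variable, 7 with the length slope and 0 to 8 with a library left out. The interaction gave 0, but 1 with DESeq2 on all libraries and 0 to 1 with a library left out. The causes were not tested.

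The replicate block over all 4 groups assumes pairs that the deviations did not bear out between Card9 genotypes, and gave 306 genes in 5xFAD against WT, 340 without Card9 and 1871 in the mean transgene contrast.

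The values that changed sign had not passed the threshold. Itga6 in 5xFAD against WT (-0.046) became 0.040 with DESeq2 size factors, 0.0036 with no filter, 0.10 with 10 counts in every library, 0.036 with DESeq2 on all libraries, 0.0062 with the replicate block, 0.045 with DESeq2 on the groups compared, 0.10 with edgeR on the groups compared, 0.017 with the block within each Card9 genotype and 0.13 with the length slope. Itgb2 in Card9-/- against WT (0.013) became -0.055 with DESeq2 size factors, -0.11 with 10 counts in every library, -0.055 with DESeq2 on all libraries, -0.054 with DESeq2 on the groups compared and -0.36 with the length slope. Itga6 in Card9-/- against WT (0.074) became -0.020 with 10 counts in every library and -0.047 with the length slope. Itgb2 in Card9-/-5xFAD against 5xFAD (0.077) became -0.063 with 10 counts in every library and -0.35 with the length slope. Itga4 in Card9-/-5xFAD against 5xFAD (0.047) became -0.015 with DESeq2 size factors and -0.13 with the length slope. Itgb5 in Card9-/-5xFAD against 5xFAD (0.011) became -0.042 with DESeq2 size factors, -0.011 with no filter, -0.10 with 10 counts in every library, -0.039 with DESeq2 on all libraries, -0.14 with the replicate block, -0.054 with DESeq2 on the groups compared, -0.041 with edgeR on the groups compared and -0.25 with the length slope. Itgam in the mean transgene contrast (0.080) became -0.17 with the length slope. Itgam in the mean Card9 contrast (-0.067) became 0.14 with the length slope. Itgb2 in the mean Card9 contrast (0.045) became -0.020 with DESeq2 size factors, -0.085 with 10 counts in every library, -0.018 with DESeq2 on all libraries and -0.36 with the length slope. Itga4 in the mean Card9 contrast (-0.042) became 0.10 with both shallow libraries left out. Itgb5 in the mean Card9 contrast (0.19) became -0.066 with the length slope. Itgb2 in the interaction (0.065) became -0.0015 with the block within each Card9 genotype. Itgb1 in the interaction (-0.012) became 0.080 with both shallow libraries left out.

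With a library left out, the fold changes that changed sign had these lowest and highest log2 values. In 5xFAD against WT, Itga6 ran from -0.19 to 0.27, Itgam ran from -0.41 to 0.10 and Itgb2 ran from -0.078 to 0.31. In Card9-/-5xFAD against Card9-/-, Itga6 ran from -0.13 to 0.29, Itgb2 ran from -0.069 to 0.40 and Itgb5 ran from -0.52 to 0.52. In Card9-/- against WT, Itga4 ran from -0.34 to 0.23, Itga6 ran from -0.077 to 0.39, Itgax ran from -0.29 to 0.062 and Itgb2 ran from -0.18 to 0.21. In Card9-/-5xFAD against 5xFAD, Itga4 ran from -0.24 to 0.21, Itga6 ran from -0.013 to 0.40, Itga9 ran from -0.014 to 0.29, Itgal ran from -0.32 to 0.18, Itgam ran from -0.015 to 0.41, Itgb2 ran from -0.18 to 0.30 and Itgb5 ran from -0.68 to 0.26. In the mean transgene contrast, Itga6 ran from -0.086 to 0.20 and Itgam ran from -0.024 to 0.30. In the mean Card9 contrast, Itga4 ran from -0.18 to 0.13, Itgam ran from -0.25 to 0.091, Itgb2 ran from -0.082 to 0.15 and Itgb5 ran from -0.16 to 0.32. In the interaction, Itga4 ran from -0.18 to 0.38, Itga6 ran from -0.15 to 0.33, Itgal ran from -0.0088 to 0.72, Itgav ran from -0.33 to 0.16, Itgb1 ran from -0.16 to 0.19, Itgb2 ran from -0.19 to 0.29 and Itgb5 ran from -1.05 to 0.024. The cause was not tested.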
